A study of Mus musculus with 12 samples.

Results

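The 10 genes described here, Gap43, Sprr1a, Basp1, Stmn2, Stmn4, Tubb2b, Tubb3, Tubb6, Flrt3 and Marcks, encode proteins that act in the growth cone or mark regenerating sensory neurons. They were chosen by name among the 44345 gene names of a table of read counts from mouse sciatic dorsal root ganglia (DRG), the clusters of sensory neurons whose axons run in the sciatic nerve. All 10 were found, and all 10 were among the 16238 genes with enough reads to be tested. The 12 samples fell into 4 groups of 3. The mice were C57BL/6, 5 to 8 weeks old, and lived for 10 days in standard housing (SH) or in an enriched environment (EE) before sham surgery, in which the nerve was exposed only, or sciatic nerve axotomy (SNA), a cut of the nerve. This gave SH Sham and SH SNA in standard housing, and EE Sham and EE + SNA in enriched housing. The labels name no transgene and no drug in any group. The ganglia were L4 to L6 per the labels. The time from surgery to collection of these ganglia is not given in the sources used here. Per the study, each sample pooled those of both sides of 2 mice, and EE Sham came from an earlier data set, so that a difference of that group, if it was sequenced apart, cannot be told apart from one between sequencing runs.

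An axon that regrows needs a growth cone, a motile tip in which membrane, actin and microtubules are rebuilt. GAP43, BASP1 and MARCKS are acidic proteins of the inner membrane leaflet that bind calmodulin or phosphoinositides and act on cortical actin, and GAP43 and MARCKS are substrates of protein kinase C. Stathmins bind tubulin dimers and tune microtubule turnover, β-tubulins form the microtubule wall together with α-tubulins, SPRR1A is an epidermal cornified envelope protein that injured sensory neurons are known to make, and FLRT3 is a leucine-rich repeat membrane protein that binds UNC5 and latrophilin receptors.

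Read depth differed between groups, and every SH Sham library was deeper than every SH SNA and EE Sham library, with 13782383 to 17036481 reads on genes in SH Sham, 11933367 to 13054581 in SH SNA, 11343579 to 12963937 in EE Sham and 11401221 to 22871460 in EE + SNA, whose library 2 was the deepest. Sprr1a, the gene with the fewest reads of the 10, had 79 to 698 reads per sample. Atf3, a transcription factor known to be induced by nerve injury, was used to check the surgery labels. It stood at 110 to 138 CPM in SH Sham and 136 to 168 CPM in EE Sham. CPM here are a gene's reads relative to the sample's reads on the 16238 tested genes, scaled by TMM to one common total. In SH SNA Atf3 had 499 to 549 CPM and in EE + SNA 454 to 516 CPM, so that every sample matched its label. Library 2 of SH SNA stood apart by its muscle genes (10 markers summed to 1387 CPM, against 117 to 378 CPM in the other 11) and library 3 of EE + SNA by its neutrophil genes (726 CPM, against 68.9 to 307 CPM). Values without these libraries are given where they change a call. In the muscle sum Pvalb alone had 111 to 169 CPM in the 12 samples, and each other muscle marker fell to 1.17 CPM or less in its lowest sample. The low end of the muscle sum is thus mostly Pvalb, and the sum understates how much the other muscle genes varied between libraries.

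In uninjured ganglia the 10 genes spanned more than 2 orders of magnitude on the FPKM scale, on which reads are divided by gene length so that genes can be compared. In SH Sham, Tubb3 stood at 1343 ± 65.4 FPKM (SD, n = 3) and Stmn2 at 1149 ± 18.97 FPKM. Tubb2b (167 ± 12.8 FPKM), Gap43 (154 ± 7.60 FPKM) and Basp1 (113 ± 2.23 FPKM) formed a middle tier. Marcks (23.3 ± 2.74 FPKM), Stmn4 (13.7 ± 1.30 FPKM), Tubb6 (13.4 ± 0.66 FPKM), Sprr1a (12.5 ± 3.84 FPKM) and Flrt3 (8.31 ± 0.59 FPKM) were low. Neighbours in this order had separate ranges in the 3 samples except Tubb2b and Gap43, Stmn4 and Tubb6, and Tubb6 and Sprr1a, whose ranges overlapped. The level of Flrt3 is that of identifier ENSMUSG00000051379, which the GENCODE annotation holds. The FPKM table lists the name also under ENSMUSG00000079021, which that annotation does not hold, with values from the same reads that are 6.60 times as high (54.9 ± 3.91 FPKM in SH Sham). By that identifier Flrt3 would stand between Basp1 and Marcks, so that its place among the levels depends on the gene length used. Its fold changes, made from counts, do not.

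SNA raised most of the 10 genes. With all 12 samples in one fit and the effect averaged over both housings, 8 of 10 were higher after adjustment and none was lower, where 21.1% of all genes tested were called and 10.8% were called higher. Tubb3 and Basp1 did not pass. The median log2 fold change of the 10 was 0.35, against 0.0070 over all genes. In 7 of 10 each of the 6 SNA samples was above each of the 6 sham samples (5.47% of all genes). In SH SNA against SH Sham, 7 of 10 were higher (11.2% of all genes were called, 6.06% higher), and in 8 of 10 every SH SNA sample was above every SH Sham sample (14.3% of all genes). In EE + SNA against EE Sham, 6 of 10 were higher (4.83% of all genes were called, 2.51% higher), and in EE + SNA against SH Sham likewise 6 of 10 (12.5% and 6.87%). Without EE + SNA 1 the calls over all genes in that comparison went from 2031 to 1168, and those of the 10 from 6 to 5. Without SH SNA 1 the calls over all genes in SH SNA against SH Sham went from 1823 to 1207, and those of the 10 from 7 to 6. The comparisons of SH SNA and of EE + SNA with SH Sham share their control samples and are not independent of each other.

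**Figure D1:**
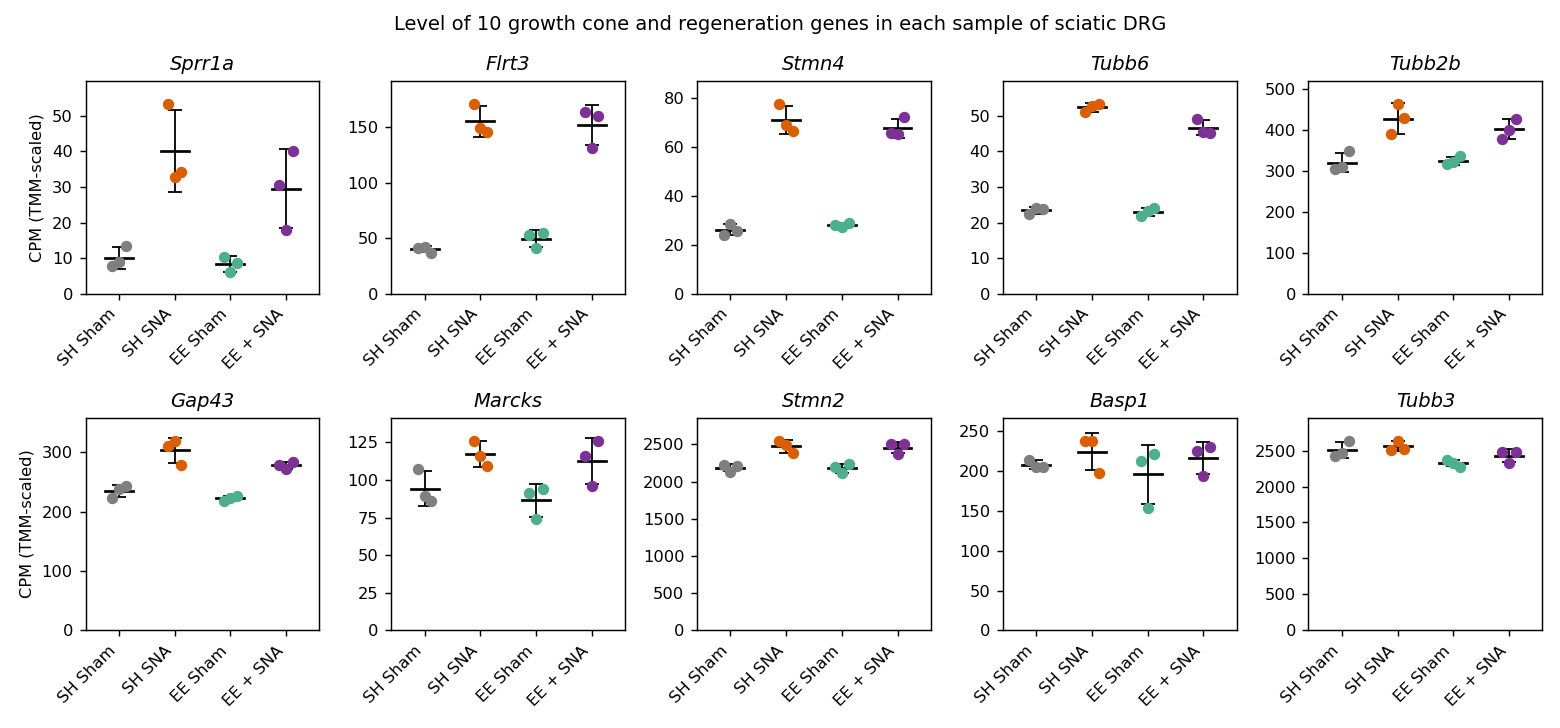
CPM (TMM-scaled, vertical axes from 0, 1 panel per gene) of the 10 genes in each of the 12 samples, by group, with the mean and SD of 3 samples in black. Sprr1a, Flrt3, Stmn4 and Tubb6 separate the SNA groups from the sham groups widely (for Flrt3, 131 to 171 CPM against 37.1 to 55.0 CPM), while for Basp1, Tubb3 and Marcks the sham and SNA samples overlap.

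Gap43 (growth-associated protein 43, ENSMUSG00000047261, chr16:42248442-42340651 of GRCm38, minus strand) had 223, 238 and 243 CPM in SH Sham and 311, 320 and 279 CPM in SH SNA. It had 217, 223 and 226 CPM in EE Sham and 278, 272 and 284 CPM in EE + SNA. All 6 SNA samples lay above all 6 sham samples. The log2 fold change was 0.37 ± 0.06 (SE) in SH (adjusted P = 0.00228) and 0.31 ± 0.06 in EE (adjusted P = 0.0104), a fold change of 1.29 and 1.24. Its call in EE was lost without EE Sham 3 (adjusted P = 0.0603) and without EE + SNA 1 (0.0619).

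Marcks (myristoylated alanine-rich C kinase substrate, ENSMUSG00000069662, chr10:37133375-37138920, minus strand) had 107, 89.3 and 85.7 CPM in SH Sham against 126, 116 and 109 CPM in SH SNA. In EE Sham it had 91.1, 73.8 and 94.2 CPM, and in EE + SNA 116, 95.7 and 126 CPM. Within each housing the SNA samples lay above the sham samples, but by a narrow margin, and across housings the groups overlapped. Its log2 fold change was 0.32 ± 0.08 in SH (adjusted P = 0.0290) and 0.37 ± 0.11 in EE (adjusted P = 0.0771, not called, but called in 6 of 15 alternatives), and 0.35 ± 0.08 over both (adjusted P = 0.00438). The call in SH was lost when any 1 of SH Sham 2, SH Sham 3, SH SNA 1 or SH SNA 2 was left out (adjusted P from 0.0515 to 0.113).

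Basp1 (brain acid-soluble protein 1, ENSMUSG00000045763, chr15:25363277-25413764, minus strand), which acts at the same membrane sites as GAP43, did not pass in any comparison. It had 214, 205 and 205 CPM in SH Sham, 239, 238 and 198 CPM in SH SNA, 213, 154 and 222 CPM in EE Sham, and 226, 194 and 231 CPM in EE + SNA. The groups overlapped, with library 2 of EE Sham lowest. The log2 difference after SNA over both housings was 0.13, with a 95% interval of -0.04 to 0.29 and an adjusted P of 0.285.

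The 2 stathmins differed in level and in response. Stmn4 (ENSMUSG00000022044, chr14:66344296-66361680, plus strand) had 24.2, 28.8 and 25.7 CPM in SH Sham and 77.8, 69.0 and 66.5 CPM in SH SNA. It had 28.2, 27.3 and 28.9 CPM in EE Sham and 65.9, 65.3 and 72.3 CPM in EE + SNA. Every SNA sample was more than 2 times as high as every sham sample. SNA raised Stmn4 by 1.45 ± 0.09 on the log2 scale in SH (adjusted P = 1.19e-06) and 1.26 ± 0.07 in EE (adjusted P = 4.24e-06), and 1.36 ± 0.06 over both.

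Stmn2 (also called SCG10, ENSMUSG00000027500, chr3:8509360-8561606, plus strand), one of the most abundant neuronal transcripts, had 2217, 2132 and 2203 CPM in SH Sham and 2552, 2491 and 2378 CPM in SH SNA. In EE Sham it had 2195, 2116 and 2235 CPM, and in EE + SNA 2501, 2370 and 2502 CPM. All SNA samples lay above all sham samples, by a small margin. The log2 fold change of 0.18 ± 0.06 in SH and 0.16 ± 0.06 in EE did not pass (adjusted P = 0.0819 and 0.128), whereas the average over both housings did, at 0.18 ± 0.04 (adjusted P = 0.00427). The log2 ratio of the CPM of Stmn4 to Stmn2 moved from -6.38 ± 0.16 in SH Sham to -5.12 ± 0.08 in SH SNA, and from -6.28 ± 0.01 in EE Sham to -5.18 ± 0.07 in EE + SNA. Gene length is not taken out of this ratio, so that its change can be read and its size cannot.

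Of the 3 β-tubulins, Tubb6 changed most. Tubb6 (tubulin β6 class V, ENSMUSG00000001473), an isotype found in many non-neuronal cells too, had 22.3, 24.2 and 23.9 CPM in SH Sham and 51.1, 52.7 and 53.4 CPM in SH SNA. It had 21.8, 23.2 and 24.0 CPM in EE Sham and 49.1, 45.6 and 45.3 CPM in EE + SNA. The 6 sham samples lay between 21.8 and 24.2 CPM, far below the 6 SNA samples. After SNA its log2 fold change was 1.16 ± 0.07 in SH (adjusted P = 1.58e-06) and 1.01 ± 0.08 in EE (adjusted P = 4.54e-05), a level about 2 times as high.

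Tubb2b (tubulin β2B class IIb, ENSMUSG00000045136, chr13:34126748-34130466, minus strand), an isotype of developing neurons, had 304, 308 and 348 CPM in SH Sham against 389, 463 and 429 CPM in SH SNA. In EE Sham it had 316, 321 and 336 CPM, and in EE + SNA 379, 401 and 427 CPM. All SNA samples were above all sham samples. The log2 fold change was 0.42 ± 0.07 in SH (adjusted P = 0.00271) and 0.30 ± 0.06 in EE (adjusted P = 0.0202). The call in EE was lost without EE Sham 1, EE Sham 3, EE + SNA 2 or EE + SNA 3, the library rich in neutrophil genes (adjusted P from 0.0561 to 0.0718), and by limma on FPKM (0.0587 and 0.0588). In the reference transcripts, 578 of its 2222 distinct 100-base stretches (26.01%) also occurred in Tubb2a or its pseudogene Tubb2a-ps2, so that reads could be split or lost between these genes. None of the other 9 genes shared such a stretch with another gene.

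Tubb3 (tubulin β3 class III, ENSMUSG00000062380, chr8:123411424-123422015, plus strand, within Gm20388 on the same strand but sharing no exon base with it), the isotype used as a marker of neurons, had 2421, 2460 and 2639 CPM in SH Sham and 2509, 2638 and 2528 CPM in SH SNA. It had 2367, 2328 and 2278 CPM in EE Sham and 2485, 2324 and 2476 CPM in EE + SNA. Sham and SNA samples overlapped. The log2 difference after SNA over both housings was 0.05, with a 95% interval of -0.04 to 0.13 (adjusted P = 0.461).

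Because β-tubulins share one role, their proportions were also computed, as each gene's percentage of the summed FPKM of 8 β-tubulin genes. Tubb6 made up 0.48% ± 0.02 in SH Sham and 1.02% ± 0.03 in SH SNA, and 0.49% ± 0.03 in EE Sham and 0.94% ± 0.05 in EE + SNA. Tubb2b made up 5.97% ± 0.12 and 7.57% ± 0.34 in SH, and 6.32% ± 0.21 and 7.42% ± 0.44 in EE. Tubb3 made up 48.2% ± 0.43 in SH Sham and 46.7% ± 1.01 in SH SNA. In EE Sham it made up 46.7% ± 0.87 and in EE + SNA 46.1% ± 0.56, and it remained the main isotype in all 12 samples. Tubb2a, which is not among the 10, had 12.7% ± 0.52 and 14.6% ± 0.60 in SH, and its counts rose by 0.24 on the log2 scale after SNA (adjusted P = 0.00237). These shares are a description, without a test.

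**Figure D2:**
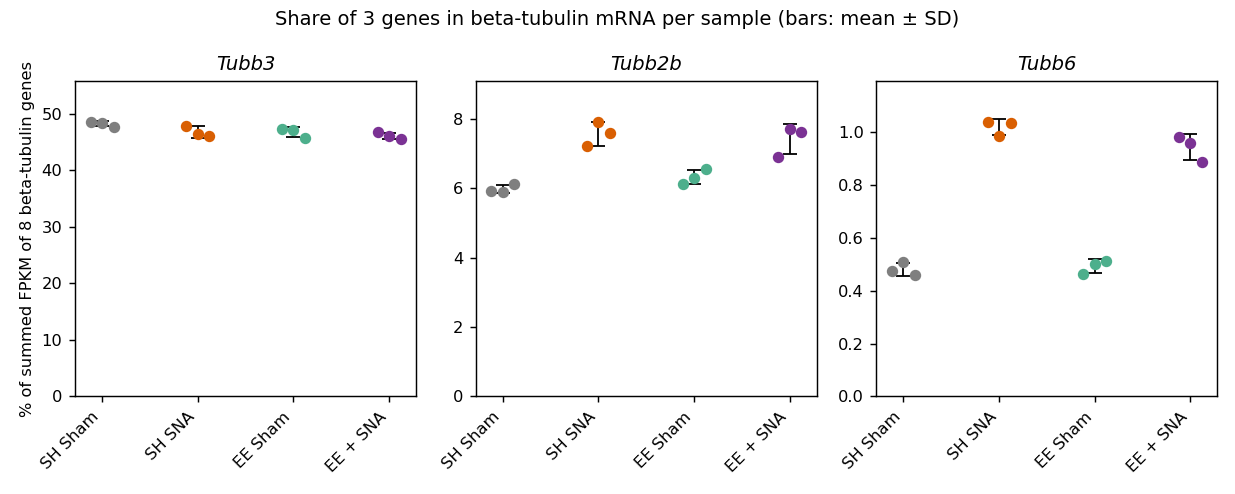
Percentage of the summed FPKM of 8 β-tubulin genes taken by Tubb3, Tubb2b and Tubb6 in each of the 12 samples, by group (points, samples; bars, mean ± SD of 3; vertical axes from 0 with a scale per panel). Tubb6 goes from 0.46% to 0.51% in the 6 sham samples to 0.89% to 1.04% in the 6 SNA samples, and Tubb3 stays between 45.6% and 48.5%.

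Sprr1a (small proline-rich protein 1A, ENSMUSG00000050359, chr3:92483952-92485895, minus strand) had the largest estimated fold change of the 10 after SNA within each housing. It had 7.68, 8.89 and 13.5 CPM in SH Sham and 53.4, 32.7 and 34.1 CPM in SH SNA. In EE Sham it had 10.5, 6.00 and 8.53 CPM, and in EE + SNA 30.5, 18.1 and 40.1 CPM. Every SNA sample was above every sham sample, although replicates varied more than for any other of the 10 genes, with an SD of 26.9% to 37.3% of the mean in the 4 groups. Sprr1a rose by 2.01 ± 0.21 on the log2 scale in SH (adjusted P = 9.12e-05) and 1.81 ± 0.27 in EE (adjusted P = 0.00278), and at 1.91 ± 0.20 over both housings Sprr1a ranked 32nd of the 16238 genes by size of increase. In EE + SNA against SH Sham Flrt3 stood higher, at 1.90 ± 0.09 against 1.53 ± 0.26 for Sprr1a. Of 15 other small proline-rich genes none had enough reads to be tested, and together they had 0 to 0.48 CPM in any sample. Sprr1b was at 0 in all 12.

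Flrt3 (fibronectin leucine rich transmembrane protein 3, chr2:140650914-140671469, minus strand), which lies within Macrod2 on the other strand and shares no exon base with it, had 41.6, 42.5 and 37.1 CPM in SH Sham and 171, 149 and 145 CPM in SH SNA. It had 52.8, 41.3 and 55.0 CPM in EE Sham and 164, 131 and 160 CPM in EE + SNA. The lowest SNA sample was more than 2 times as high as the highest sham sample. The log2 fold change was 1.94 ± 0.08 in SH (adjusted P = 6.32e-08, the smallest of all genes in this comparison) and 1.60 ± 0.11 in EE (adjusted P = 2.69e-05). By size of increase over both housings Flrt3 ranked 45th, Stmn4 87th and Tubb6 140th of the 16238 genes.

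RefSeq promoter windows of GRCm38.p6, from 250 bases before to 50 bases after the annotated start, were at hand for 4 of the 10 genes. These are Sprr1a and Flrt3, which rose most after SNA, and Tubb3 and Basp1, which did not pass, and they are shown to set the sequences of the strongest and the weakest responders side by side. Capitals mark matches on the strand shown to TGANTCA, the AP-1 motif of JUN, FOS and ATF proteins, and to TGACG, the core of a cAMP response element. The windows are chr3:92485832-92486131 (minus strand), chr2:140671427-140671726 (minus strand), chr8:123411303-123411602 (plus strand) and chr15:25413715-25414014 (minus strand).
Sprr1a: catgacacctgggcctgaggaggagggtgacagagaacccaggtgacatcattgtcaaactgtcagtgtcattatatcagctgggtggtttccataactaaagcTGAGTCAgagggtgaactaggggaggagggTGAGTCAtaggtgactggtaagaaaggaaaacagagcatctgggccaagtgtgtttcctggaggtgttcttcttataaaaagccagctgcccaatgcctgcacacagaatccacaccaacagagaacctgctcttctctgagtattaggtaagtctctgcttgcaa
Flrt3: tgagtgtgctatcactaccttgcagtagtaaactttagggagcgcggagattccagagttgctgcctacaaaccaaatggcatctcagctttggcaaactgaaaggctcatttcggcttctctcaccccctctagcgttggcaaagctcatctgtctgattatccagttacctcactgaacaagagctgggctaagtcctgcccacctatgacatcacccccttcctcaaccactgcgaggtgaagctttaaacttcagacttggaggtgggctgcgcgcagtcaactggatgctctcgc
Tubb3: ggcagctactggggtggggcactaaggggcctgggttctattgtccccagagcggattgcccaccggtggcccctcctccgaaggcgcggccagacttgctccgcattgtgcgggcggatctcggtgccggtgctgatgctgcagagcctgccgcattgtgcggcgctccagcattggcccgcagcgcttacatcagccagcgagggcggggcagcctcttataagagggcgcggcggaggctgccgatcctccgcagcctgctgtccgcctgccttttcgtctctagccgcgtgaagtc
Basp1: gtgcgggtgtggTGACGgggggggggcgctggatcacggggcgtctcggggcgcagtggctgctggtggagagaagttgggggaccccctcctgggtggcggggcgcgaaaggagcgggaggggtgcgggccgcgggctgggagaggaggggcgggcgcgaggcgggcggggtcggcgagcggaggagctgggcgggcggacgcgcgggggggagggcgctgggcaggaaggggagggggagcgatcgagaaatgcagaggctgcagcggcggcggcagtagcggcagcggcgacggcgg
Both strands were searched. The Sprr1a window held TGANTCA at -146 and -116 from the start, each time as TGAGTCA. Of all 32851 windows 7.81% held this motif at least once and 0.46% at least 2 times. It was not in the other 3 windows. TGACG was found in Basp1 only of the 4 (-238, in 20.8% of all windows), TATAA in Sprr1a (-43, and on the other strand -44 and -179) and Tubb3 (-30, and on the other strand -31) (24.9% of all windows), and the STAT motif TTCNNNGAA in none of the 4 (8.30% of all windows). A match says only that the letters are there, and binding was not measured in these data.

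**Figure D3:**
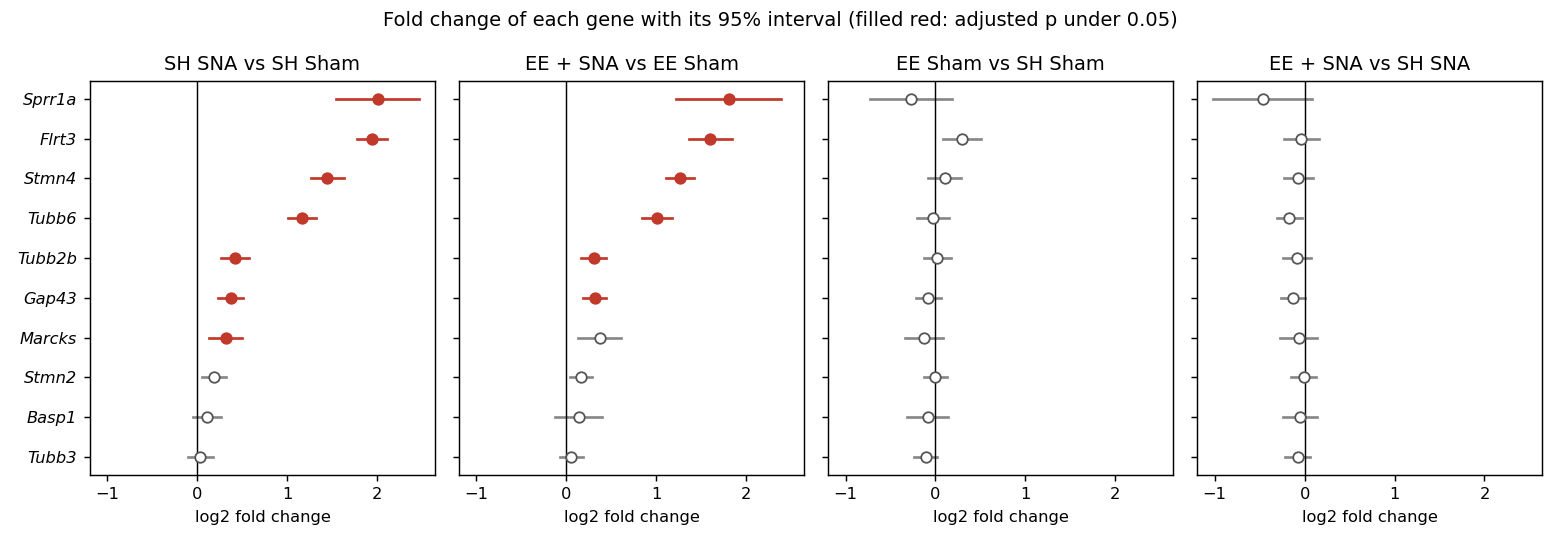
log2 fold change (point) and its 95% interval (line) of the 10 genes in 4 comparisons, each from a fit to the 6 samples of the 2 groups, with genes past an adjusted P of 0.05 in filled red. In both SNA comparisons Sprr1a (2.01 and 1.81), Flrt3, Stmn4 and Tubb6 (1.16 and 1.01) stand above 1, and neither housing comparison has a filled point.

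Genes that were abundant before injury had small fold changes, and Sprr1a, Stmn4 and Tubb6, with a log2 fold change above 1, started under 15 FPKM, as did Flrt3 by the identifier used here. In FPKM gained the order was different. Stmn2 gained 138 FPKM, from 1143 ± 22.5 (SD, n = 6) in the sham samples to 1282 ± 34.4 in the SNA samples. Tubb2b gained 46.4 FPKM and Gap43 39.2 FPKM, followed by Sprr1a with 31.4, Flrt3 with 22.0 (145 by its other identifier, which would place it above Stmn2), Stmn4 with 21.7 and Tubb6 with 14.7 FPKM. Marcks, which started at 22.2 ± 2.60 FPKM, gained 5.85 FPKM. The 31.6 FPKM by which Tubb3 was higher and the 9.10 FPKM of Basp1 belong to genes that did not pass the test.

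**Figure D4:**
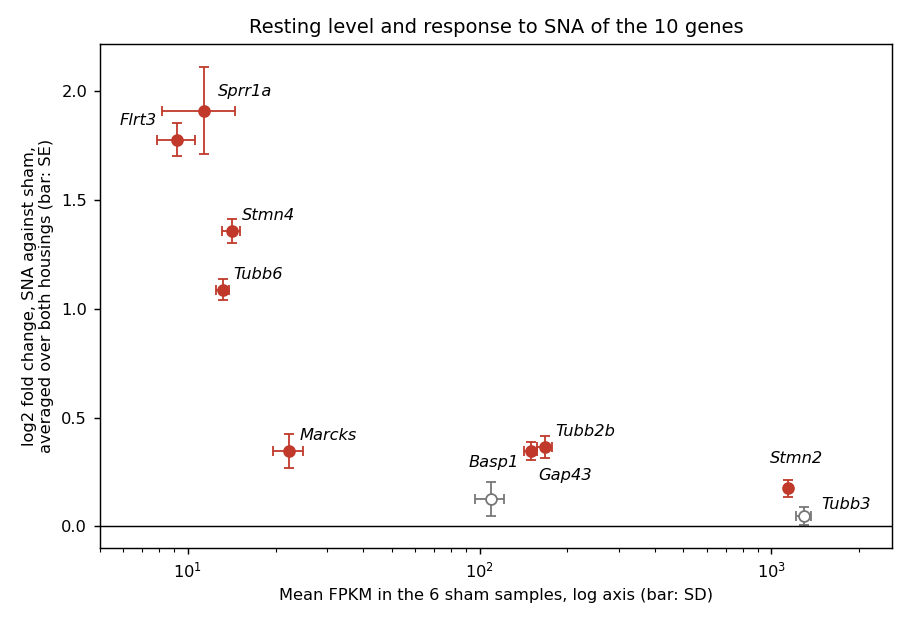
log2 fold change after SNA, averaged over both housings (vertical axis, bar: SE), against the mean FPKM in the 6 sham samples (horizontal log axis, bar: SD) for the 10 genes, with genes past an adjusted P of 0.05 in filled red. Sprr1a, Flrt3, Stmn4 and Tubb6, at 9.22 to 14.1 FPKM, stand at 1.09 to 1.91, and Stmn2 and Tubb3, at 1143 and 1290 FPKM, at 0.18 and 0.05.

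Housing alone moved none of the 10 genes past the adjusted threshold. In EE Sham against SH Sham 0 of 10 were called by edgeR (0.00616% of all genes, that is 1 gene), 0 by DESeq2, and 1 at an unadjusted P under 0.05 (2.97% of all genes). That gene was Flrt3, with a log2 difference of 0.30 ± 0.10 (unadjusted P = 0.00949), higher in EE Sham 1 and 3 while EE Sham 2 (41.3 CPM) lay within the SH Sham range. Blocking on the replicate number called 29 of all genes in place of 1, and still 0 of the 10. Tubb3 had every EE Sham sample below every SH Sham sample (4.32% of all genes did), with a log2 difference of -0.11 and a 95% interval of -0.24 to 0.02. The 16 sensory neuron markers described below summed to 19296 to 20345 CPM in EE Sham and 20672 to 21792 CPM in SH Sham. Of these markers 0 were called and 4 were lower at an unadjusted P under 0.05, and their part in the values of Tubb3 was not tested. The 95% interval for Gap43 was -0.22 to 0.06, for Stmn4 -0.08 to 0.29 and for Sprr1a -0.73 to 0.18.

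None of the 10 genes was higher in EE + SNA than in SH SNA. In EE + SNA against SH SNA all 10 log2 differences were negative, with a median of -0.07, against 0.0024 over all genes. Under some alternatives the difference turned positive for Flrt3 (up to 0.06), Marcks (0.04), Basp1 (0.02) and Stmn2 (0.02), and the others stayed negative. By edgeR 0 of 10 were called (0% of all genes), DESeq2 likewise called 0, and 1 had an unadjusted P under 0.05 (4.10% of all genes). That gene was Tubb6, lower in 3 of 3 EE + SNA samples, at -0.17 ± 0.06 (unadjusted P = 0.0238, adjusted P = 0.989). Tubb3 also had every EE + SNA sample below every SH SNA sample (5.09% of all genes did), at -0.08 ± 0.06. For Sprr1a the difference was -0.47, with a 95% interval of -1.02 to 0.09, so that an increase by EE of more than 0.09 lay outside it. The intervals were -0.23 to 0.16 for Flrt3, -0.23 to 0.09 for Stmn4, -0.26 to 0.01 for Gap43 and -0.15 to 0.13 for Stmn2.

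Averaged over both surgeries, EE left 0 of 10 called (0% of all genes), 0 by DESeq2, and 2 at an unadjusted P under 0.05 (4.54% of all genes), both lower. These were Gap43 at -0.10 ± 0.04 (unadjusted P = 0.0290) and Tubb3 at -0.09 ± 0.04 (unadjusted P = 0.0378). Whether SNA acted differently in the 2 housings was tested as an interaction, with 0 of 10 called (0% of all genes) by edgeR and by DESeq2, and 1 at an unadjusted P under 0.05 (2.61% of all genes). That was Flrt3, whose increase was smaller in EE by 0.33 ± 0.15 on the log2 scale (interaction -0.33, unadjusted P = 0.0411), with its higher level in EE Sham as given above. Atf3, the gene used to check the labels, had the same signs. It stood at 0.30 in EE Sham against SH Sham and at -0.40 for the interaction, each at an unadjusted P under 0.05 and not called. In simulated data the interaction test called 0 of 50 genes changed by 0.3 and 11 of 50 changed by 0.5 on the log2 scale. The changed genes were drawn at random from all genes tested, at any level and spread, so that these rates are not those of Flrt3. Whether a difference of the size seen for Flrt3 could be called was not tested.

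Related genes moved in both directions. Of 90 genes tested in 12 lists (110 listed), 12 were higher and 15 lower after SNA over both housings, where 21.1% of all genes tested were called. Among the other β-tubulins, Tubb2a was the only one of 5 called, and among 5 tested α-tubulins only Tuba1c was, at 0.50 ± 0.12. None of the 6 tubulin folding genes was called. The other 2 stathmins did not pass, Stmn1 with 0.10 ± 0.05 (adjusted P = 0.144) and Stmn3 with 0.03 ± 0.04 (adjusted P = 0.664).

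In the list of other growth-associated membrane proteins 4 of 10 were higher and 1 lower, where 10.8% of all genes were called higher and 10.3% lower. Higher were D3Bwg0562e (the count table's name for Plppr4, a lipid phosphatase-related protein) at 0.57 ± 0.09, 4833424O15Rik (Plppr5) at 0.35 ± 0.10, Gprin1, a partner of growth cone G proteins, at 0.35 ± 0.08, and Cnp at 0.30 ± 0.07. Nrn1, the membrane-anchored neuritin, fell by 0.38 on the log2 scale, with an SE of 0.04. Marcksl1, the close relative of Marcks, had 0.18 ± 0.08 and an adjusted P of 0.1003. Cnp marks myelinating glia as well, and 4 of 6 Schwann cell markers were higher too (their summed level was 5968 to 8465 CPM in the sham samples and 7228 to 11542 CPM in the SNA samples), the part of which in the values of Cnp was not tested.

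Of 10 tested kinases and phosphatases that act on GAP43 and MARCKS, none was higher and 5 were lower, where 10.3% of all genes were called lower. The median log2 difference of this list was -0.15, beside -0.18 for 16 sensory neuron markers, of which 9 were lower too, and the part of that in the list was not tested. The 5 were the protein kinase C genes Prkcq (-0.32 ± 0.08), Prkce (-0.26 ± 0.05), Prkca (-0.24 ± 0.06) and Prkcb (-0.18 ± 0.05), and the calcineurin subunit gene Ppp3r1 (-0.15 ± 0.04).

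Of the FLRT list, in contrast to Flrt3 itself, 5 of 10 were lower and 1 was higher (10.3% and 10.8% of all genes). The sensory neuron markers were lower alongside (9 of 16), and their part here was not tested. The paralogs Flrt1 and Flrt2 stood at -0.42 ± 0.12 and -0.24 ± 0.08, the receptor genes Unc5b and Unc5c at -0.55 ± 0.09 and -0.32 ± 0.07, and Lphn1, which encodes a latrophilin, at -0.31 ± 0.05. Unc5d alone was higher, at 0.58 ± 0.16 (adjusted P = 0.0144).

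For the next 3 lists, 10.8% of all genes were called higher, 10.3% lower and 21.1% either way, and no list was tested as a set. Microtubule-binding proteins were mixed, with 2 of 14 higher (Dclk1 0.24 ± 0.05 and Map6 0.24 ± 0.04). The 3 lower were Map7 (-0.29 ± 0.06), Mapre2 (-0.23 ± 0.04) and Clasp2 (-0.20 ± 0.05). Crmp1, which binds tubulin dimers, was the only one of 5 genes of the CRMP family called, at 0.29 ± 0.05. Among 17 actin regulators the bundling protein gene Fscn1 (0.41 ± 0.09) and the cortactin gene Cttn (0.27 ± 0.04) were higher and Evl was lower (-0.15 ± 0.04). Actb and Actg1 did not pass, with 0.07 ± 0.05 and 0.0047 ± 0.05.

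**Figure D5:**
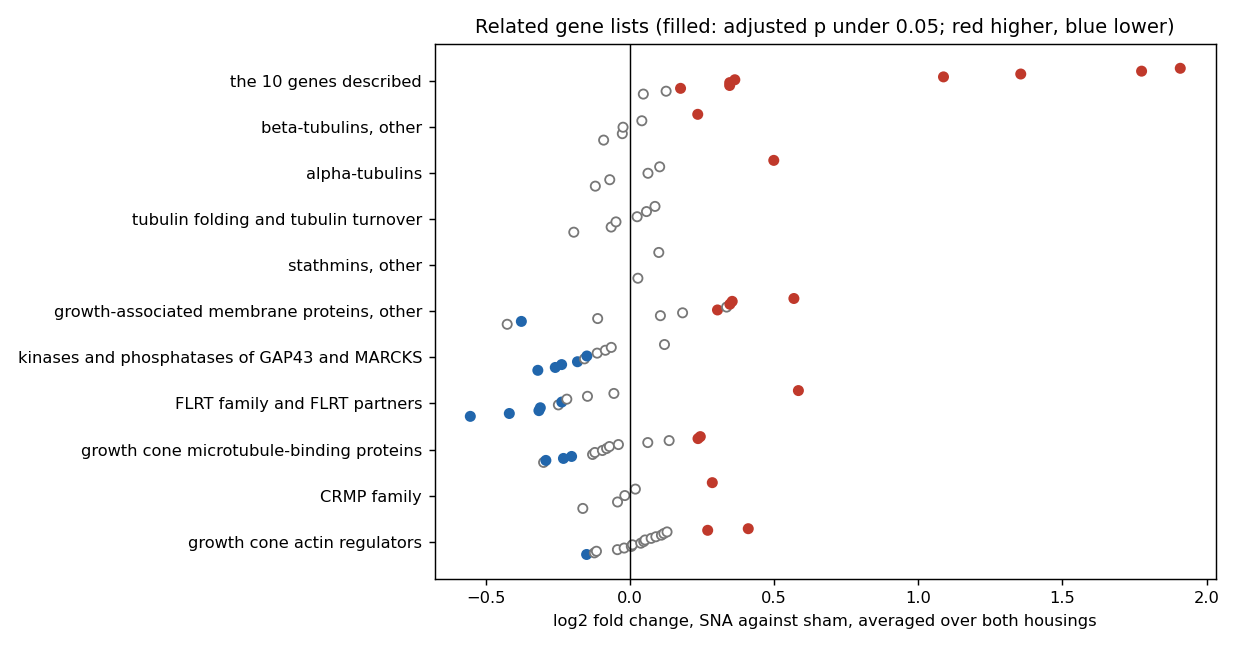
log2 fold change after SNA, averaged over both housings (horizontal axis), of the tested genes of the lists described (rows, points spread vertically within a row to be seen), with genes past an adjusted P of 0.05 filled red where higher and blue where lower. Of the 10 genes described 4 lie above 1, and no tested gene of the other lists drawn here does, the highest being Unc5d at 0.58.

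Other genes followed the leading members closely over the 12 samples. Likeness was measured as the root mean square distance between log2 CPM values, each centred on its gene's mean, over 15344 genes, as a description without a test. Nearest to Flrt3 were Sema6a (0.122), Atf3 (0.135) and Gadd45a (0.154). Nearest to Stmn4 were Smim3 (0.116), Plaur (0.117) and Adcyap1 (0.137). Sprr1a, with its larger spread between replicates, had no neighbour so close, Cckbr (0.324), Sema6a (0.360) and Acvr1c (0.366) being the nearest.

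The ganglia hold several cell types, and in whole tissue fewer cells of a type and less RNA per cell cannot be told apart. Of 16 sensory neuron markers 9 were lower after SNA and none was higher (10.3% of all genes were called lower). Their summed level was 20672 to 21792 CPM in SH Sham and 17898 to 19120 CPM in SH SNA. It was 19296 to 20345 CPM in EE Sham and 17777 to 18818 CPM in EE + SNA. Most of this sum came from Nefl, Nefm and Nefh, with means of 4553, 5172 and 2198 CPM. In SH SNA against SH Sham these stood at -0.21, -0.23 and -0.32 on the log2 scale, and Uchl1 and Prph at -0.04 and -0.07. The median of the 16 in that comparison was -0.19. The part of these lower levels in the values of the 10 genes, of which 8 rose, was not tested. Higher after SNA, where 10.8% of all genes were called higher, were 7 of 10 macrophage, 2 of 6 satellite glia and 2 of 6 fibroblast markers. Of the others, 1 of 5 endothelium, 1 of 7 tested neutrophil and 0 of 10 muscle markers were higher. The median log2 fold change was nonetheless 1.78 for the muscle and 0.96 for the neutrophil markers, with single libraries far above the rest as given above. A count of 0 called thus does not show that muscle RNA was unchanged.

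As Sprr1a is an epidermal gene, skin markers were set beside it. The 18 listed markers found summed to 7.80 to 9.56 CPM in SH Sham and 10.3 to 11.5 CPM in SH SNA, without overlap. In EE Sham they summed to 7.31 to 9.18 CPM and in EE + SNA to 9.01 to 12.8 CPM. Only EE + SNA 2, at 9.01 CPM, lay within the range of the sham samples. The group means of Sprr1a were 8.33 and 10.0 CPM in sham and 29.5 and 40.1 CPM after SNA. The part of skin RNA in the values of Sprr1a was not tested. Flg, Ivl and Lce1b were at 0 in all 12 samples and Krt5 in 11. Of the 5 skin markers tested, Lce1g, a late cornified envelope gene at 0 to 2.79 CPM, was higher (3.07 ± 0.33, adjusted P = 5.72e-06) and the keratin gene Krt1 did not pass (-0.11 ± 0.23). Without the library rich in muscle RNA (SH SNA 2), Marcks alone lost its call in SH (adjusted P = 0.0515), and 6 of 10 genes remained called.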

How the data were processed

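RNA of whole sciatic DRG was sequenced from poly(A) libraries on an Illumina HiSeq, paired end, in 12 samples, each a pool of 2 mice. Per the submitters' processing notes, reads were aligned to mm10 with TopHat2 2.0.12 and Bowtie2 2.2.3 and counted with HTSeq 0.6.0. The strand setting is not given in the sources used here. The deposited count table holds whole read counts per gene name, not normalized, that the authors made with HTSeq. The deposited FPKM table holds FPKM that the authors computed, and for the 10 genes the ratio of FPKM to counts, scaled by library total, varied between samples by at most 0.0162%. The 5 lines that name no gene were left out: of all reads, 46.7% to 47.6% overlapped no feature, 8.49% to 9.28% were not uniquely aligned and 0.31% to 0.37% were ambiguous. Depth was 11343579 to 22871460 reads on genes, and a gene with few reads, such as Sprr1a, carries more counting error.

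Scaling by TMM and the filter filterByExpr of edgeR 4.0.16 (R 4.3.3; minimum 10 counts, total 15, given the 4 groups) preceded each fit. Each pair of groups was fitted on its 6 samples, and the average effect of SNA, that of EE and their interaction on all 12. Tests were edgeR's quasi-likelihood F tests, two-sided, called at a Benjamini-Hochberg adjusted P of 0.05 over 16238 genes. Values printed as CPM are TMM-scaled, and SE and 95% intervals follow from the F statistic. P-values measure the spread between pools. On simulated counts for the 16238 genes of SH SNA against SH Sham, 36 of 50 genes changed by 1 and 9 of 50 changed by 0.3 on the log2 scale were called. Few genes were changed in this simulation, whereas 11.2% of all genes were called in the data. As the adjusted threshold depends on how many genes change, these rates do not carry over to the real test.

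The 10 genes, the related lists, the markers and the motifs were chosen with earlier results of these data known. From each related list, the 2 largest and the 2 smallest log2 fold changes among called genes were to be named; Gprin1, Prkca, Unc5c, Lphn1, Clasp2, Marcksl1, Actb, Actg1 and the stathmins that did not pass were added after their values were seen. For 3 members the 3 genes nearest in pattern were named, at a mean of at least 1 CPM with 0.5 CPM added before the log2. Synonyms from RefSeq matched 7 listed symbols to older names in the table, and 3 listed symbols, Plppr3, Drebrin1 and Loricrin, were not found. The last 2 repeat genes listed as Dbn1 and Lor. Positions come from the GENCODE annotation of GRCm38. Chromosome and position of Tubb6, and the results of 1 of the 12 related lists, are not reported here.

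Alternatives were the likelihood ratio test, DESeq2 1.42.0, library size scaling, no filter, at least 10 counts in every sample, all 12 samples in each fit, a block for the replicate number, limma 3.58.1 on log2 FPKM with a pseudocount of 1 or 0.1, and leaving out every sample in turn. Whether replicate numbers pair samples was checked by the correlation of deviations from group means. Same-numbered samples of SH Sham and EE Sham had r of 0.331, 0.137 and 0.111, which passed the limit of 0.1 set for pairing. Differently numbered samples of these groups had r of -0.332 to 0.194, the highest of which was above 0.137 and 0.111. The pairing rests on these correlations alone and is not established. In every other comparison at least 1 same-numbered r fell below 0.1. In EE + SNA against SH SNA these were 0.057, 0.113 and 0.126, all above those of differently numbered samples (-0.123 to 0.040). Figures were drawn with Python 3.11.15 and Matplotlib 3.10.9.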

Additional observations from a re-analysis of the deposited data

How the results depend on the processing

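Of 1350 values of the 10 genes under the alternatives, 1281 kept both sign and call, 18 lost a call, 14 gained one, none reversed with a call in either, and 37 changed sign with no call in either. Sprr1a, Flrt3, Stmn4 and Tubb6 were called in every alternative of the 3 SNA comparisons within a housing or over both. With 1 library left out, 6 to 7 of the 10 genes were called in SH SNA against SH Sham, 5 to 7 in EE + SNA against SH Sham, 4 to 6 in EE + SNA against EE Sham (4 without EE Sham 3), 8 to 8 for SNA over both housings, and 0 to 0 in both EE comparisons, for EE over both surgeries and for the interaction; of the related genes 26 to 32 were called, and 27 with all libraries. An unadjusted threshold called 1 gene in EE Sham against SH Sham, 1 in EE + SNA against SH SNA, 2 for EE over both surgeries and 1 for the interaction. Without a filter on low counts 1 gene was called for EE over both surgeries, Sprr1a at -0.37 (adjusted P = 0.00156); the cause was not tested. Leaving Tubb1 and Tubb4a out of the β-tubulin sum moved the gain of Tubb6 from 0.494 to 0.535 percentage points, that of Tubb2b from 1.34 to 1.42 and the difference of Tubb3 from -1.03 to -1.48. Stmn2 in SH was called by the likelihood ratio test, DESeq2 and all 12 samples in one fit (adjusted P = 0.0285, 0.00972 and 0.0487), and Marcks in SH was not called with all 12 samples in one fit (0.0810) or by limma (0.0728 and 0.0699). In EE, Marcks was called by the likelihood ratio test, DESeq2, without a filter, with all 12 samples and without EE + SNA 2 (0.000300 to 0.0471). Gap43 in EE + SNA against SH Sham was lost without SH Sham 1, SH Sham 2 or EE + SNA 1 (0.0507 to 0.0707). Over all genes, EE + SNA against EE Sham gave 785 calls, 361 without EE Sham 3, 470 to 481 by limma, 1278 with all 12 samples, 1303 by the likelihood ratio test and 1694 without a filter. EE Sham against SH Sham gave 1 call, 5 by the likelihood ratio test and 48 without a filter, and EE + SNA against SH SNA 0, with 2 by DESeq2 and 17 without a filter. Without a filter EE over both surgeries gave 128 and the interaction 77, against 0. Scaling by library size moved the median of all genes by at most 0.018.

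With the replicate number as a block, 8 of the 10 genes were called in SH SNA against SH Sham (Stmn2 in addition, adjusted P = 0.0489), 7 in EE + SNA against EE Sham (Marcks in addition, 0.00786) and 8 for SNA over both housings. In EE Sham against SH Sham, where the numbers passed the pairing limit, the block called 0 of the 10 and changed no call. In EE + SNA against SH SNA, where same-numbered samples were also the more alike, the block called 0 of the 10 too. Whether the numbers pair samples in any comparison cannot be settled by these correlations.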
